A study of Mus musculus with 3 samples.

Results

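Elastic fibre genes were read in primary adult mouse fibroblasts, scratch-wounded and kept with the soluble micrograft (MG) and PD0325901, an inhibitor of the kinase MEK upstream of ERK, for 5 h. The genes were chosen by name as structural proteins of the fibre, without others such as Fbln7, Mfap4 and the emilins. The choice took 10 of the 43472 rows of the deposited table. They are Eln, the fibrillin genes Fbn1 and Fbn2, the microfibril-associated glycoprotein genes Mfap2 and Mfap5, the long fibulin genes Fbln1 and Fbln2, and the short fibulin genes Efemp1, Efemp2 and Fbln5. The cells were cultured from collagenase-digested tail tips of C57BL/6 mice without a sorting step, scratched with a pipette tip and given MG from mouse skin diluted in growth medium. There are 3 libraries, numbered as replicates 1, 2 and 3 in the labels and called biological replicates in the series' design text, and every one of them carries the scratch, the MG and the inhibitor. Whether they came from separate mice or cultures is not stated, so the spread between them may be partly technical. The study calls the cells adult, and neither the age in weeks nor the sex of the mice is stated in the sources used here. Cells without MG or without the inhibitor were not analysed here, so the values below are levels and differences between replicates, and no effect of MG or of the inhibitor was computed.

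An elastic fibre has a core of cross-linked elastin, the product of Eln, laid onto a sheath of microfibrils built from fibrillin. Fibulins bind both tropoelastin and fibrillin, and fibulin-4 (Efemp2) and fibulin-5 (Fbln5) help to bring tropoelastin and lysyl oxidase together before cross-linking. In skin the fibres give recoil, and dermal fibroblasts are known to make them, as are the smooth muscle cells of vessel walls.

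Reads on genes, recovered from the deposited normalized counts, summed to between 17244505 and 27037783 in a library, so that 3 reads, the limit that a count of 0 allows, equalled between 2.11 and 3.56 normalized counts. Such limits and all intervals below cover counting error only. Detection was set at 10 normalized counts in each of the 3 libraries, a level reached by 12204 genes and by 9 of the 10 elastic fibre genes, with Eln the one that missed it. All 8 fibroblast markers (Col1a1, Col1a2, Col3a1, Pdgfra, Dcn, Lum, Vim and Thy1) were detected, and their summed level lay between 344400 and 509707 normalized counts. Smooth muscle markers were also all detected (8 of 8, summed level between 298447 and 356387). Activated fibroblasts are also known to make several of these, such as Acta2 and Tagln, and smooth muscle cells and such fibroblasts cannot be told apart here. Of 7 markers each, 1 keratinocyte, 1 endothelial and 1 leukocyte gene was detected, with Krt15, Krt1, Dsg3 and Tie1 at 0 in every library. Replicate 2 stood apart, by over 2-fold in 1 direction from each of the other two, in 10.1% of the 13154 genes with a mean of at least 10 normalized counts, against 4.26% for replicate 1 and 3.58% for replicate 3. The summed tendon and cartilage markers were lowest in replicate 2 and highest in replicate 1, with 17347, 1108 and 5726 normalized counts in replicates 1, 2 and 3. Col2a1 alone gave 11538, 229 and 833 of these. The part of these markers in the results below was not tested. In RNA from whole cultures, fewer cells of a type and less RNA per cell cannot be told apart.

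Elastin message was low and differed between all 3 libraries. Eln is annotated on chromosome 5 from 134702593 to 134747323 on the minus strand (GRCm38, as for all positions here). Its normalized counts were 6.95 in replicate 1, 45.1 in replicate 2 and 129 in replicate 3, which rested on 8, 64 and 109 reads. The 3 values did not touch within their exact Poisson intervals (95%), which ran from 3.00 to 13.7 in replicate 1, from 34.7 to 57.6 in replicate 2 and from 106 to 156 in replicate 3. Replicate 3 was therefore highest and replicate 1 lowest, 18.6-fold apart with a counting interval from 9.11 to 44.2. Even in replicate 3, the level of Eln was 16.0 normalized counts per kb of exon, against a median of 107 over the 11620 detected genes whose length was known. On its mean of 7.46 ± 7.72 normalized counts per kb (SD, n = 3), Eln exceeded 4.98% of those genes. An annotated gene on the opposite strand, Gm30003, shares 267 exonic bases with Eln. Whether reads were counted by strand is not stated in the sources used here, so reads of such pairs cannot be told apart.

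**Figure D1:**
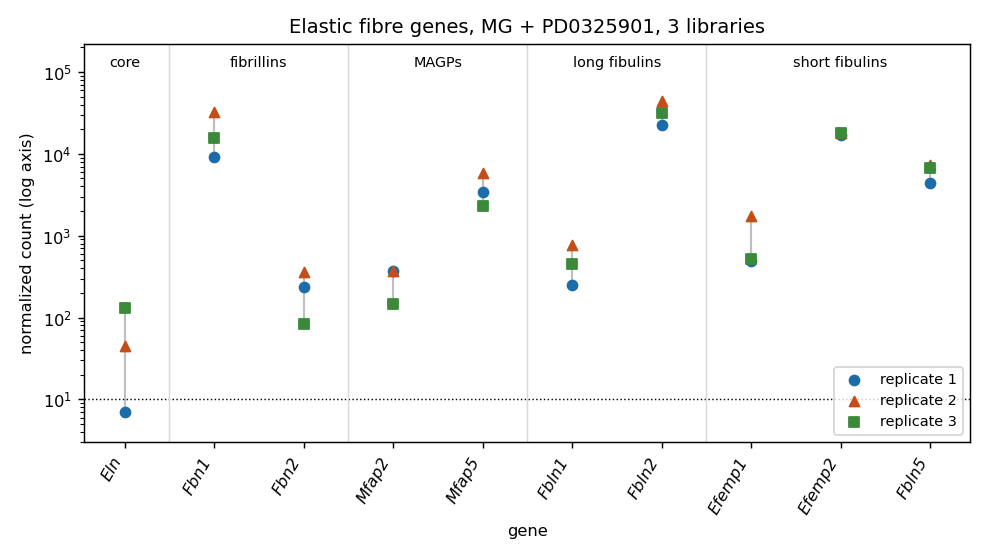
Normalized counts (log axis) of the 10 elastic fibre genes, grouped by role, in the 3 MG + PD0325901 libraries; each symbol is 1 library, the grey line spans the 3 and the dotted line is the detection minimum of 10. Eln lies between 6.95 and 129, Fbln2 between 22442 and 44052, and the 3 symbols of Efemp2 coincide near 17638.

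Fbn1 carried nearly all of the fibrillin message, and its level differed widely between libraries. Fbn1 (chromosome 2, 125300594 to 125507993, minus strand) encodes fibrillin-1, the main microfibril protein of adult tissue. Replicates 1, 2 and 3 held 9241, 32899 and 15624 normalized counts of it, which average to 19255 ± 12240 (SD, n = 3). Replicate 2 was 3.56-fold above replicate 1 (95% counting interval 3.49 to 3.64) and 2.11-fold above replicate 3 (2.07 to 2.15), so the high value belonged to 1 library. Fbn2 encodes fibrillin-2, which is known mainly from developing tissue, and had 239, 356 and 83.0 normalized counts. Here replicate 3 was the low one, 2.88-fold below replicate 1 and 4.29-fold below replicate 2. Per kb of exon, Fbn1 exceeded Fbn2 by 42.2-fold, 101-fold and 205-fold in replicates 1, 2 and 3, a ratio that does not depend on how the libraries were scaled. Gm9913, on the opposite strand, shares 2442 exonic bases with Fbn1, and was listed with at most 27.5 normalized counts in any library.

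The microfibril-associated glycoproteins, which bind fibrillin, were both detected and were both lowest in replicate 3. In replicates 1, 2 and 3, Mfap5 (MAGP-2) had 3454, 5774 and 2324 normalized counts and Mfap2 (MAGP-1) had 373, 369 and 145. For Mfap2, replicates 1 and 2 were not separated beyond counting error (exact binomial test, two-sided, adjusted p = 0.922, fold 1.01 with a counting interval from 0.886 to 1.15). Replicate 3 was 2.58-fold below replicate 1 (interval 2.10 to 3.18) and 2.55-fold below replicate 2 (2.09 to 3.14). Mfap5 exceeded Mfap2 by 3.13-fold, 5.28-fold and 5.42-fold per kb of exon. Mfap2 lies on chromosome 4 from 141010418 to 141015984 and Mfap5 on chromosome 6 from 122505845 to 122529290, both on the plus strand.

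Among the long fibulins, Fbln2 was the highest of all elastic fibre genes on the mean and Fbln1 was modest. Fbln2 (chromosome 6, 91212455 to 91272540, plus strand), whose product binds fibrillin and tropoelastin, had 22442, 44052 and 31851 normalized counts, averaging 32782 ± 10835 (SD, n = 3). Fbln1 (chromosome 15, 85205949 to 85286535, plus strand) had 251, 764 and 450 normalized counts. Both genes were lowest in replicate 1 and highest in replicate 2, by 1.96-fold for Fbln2 (counting interval 1.93 to 1.99) and 3.04-fold for Fbln1 (2.67 to 3.48). The ratio of Fbln2 to Fbln1 per kb of exon stayed between 39.5 and 61.3, a 1.55-fold range, narrower than that of either gene.

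The short fibulins ranged from the steadiest elastic fibre gene to one of the most variable. Efemp2 (chromosome 19, 5473954 to 5482517, plus strand), the gene of fibulin-4, had 17201, 17918 and 17794 normalized counts, averaging 17638 ± 383 (SD, n = 3). Its SD of log2(normalized count + 1) was 0.03 on the deposited scaling, lower than in all but 0.869% of the detected genes. Scaling the libraries to equal totals shifted the median of all genes by 0.047 in replicate 2 and -0.055 in replicate 3 (log2). Both shifts are larger than this SD, and the place of Efemp2 among all genes under that scaling was not computed. The pair furthest apart, replicates 1 and 2, differed by 1.04-fold (interval 1.02 to 1.06), and replicates 2 and 3 were not separated (exact binomial test, two-sided, adjusted p = 0.584). Efemp1 (chromosome 11, 28853204 to 28926743, plus strand), the gene of fibulin-3, had 491, 1734 and 524 normalized counts. Replicate 2 was 3.53-fold above replicate 1 (3.22 to 3.88) and 3.31-fold above replicate 3 (2.99 to 3.67), while replicates 1 and 3 were not separated (exact binomial test, adjusted p = 0.406). Fbln5 (chromosome 12, 101746565 to 101819055, minus strand), the gene of fibulin-5, had 4346, 7390 and 6702 normalized counts, so that replicate 1 was the low library and replicates 2 and 3 lay within 1.10-fold. Per kb of exon, Efemp2 exceeded Fbln5 by 7.22-fold, 4.42-fold and 4.84-fold, and Efemp1 by 18.9-fold, 5.56-fold and 18.3-fold. Efemp2 shares 173 exonic bases with Mus81 on the opposite strand, which had between 255 and 428 normalized counts.

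Ordered by normalized counts per kb of exon, the means ran from Fbln2 with 5146 ± 1701 (SD, n = 3) over Efemp2 with 4656 ± 101, Fbn1 with 1588 ± 1009, Mfap5 with 1073 ± 490 and Fbln5 with 889 ± 231 to Efemp1 with 450 ± 348. Mfap2 with 244 ± 108, Fbln1 with 112 ± 59.2, Fbn2 with 17.1 ± 10.4 and Eln followed. Of the 9 neighbouring pairs in this order, 2 were separated in the sense that their values did not overlap between libraries, Efemp2 above Fbn1 and Fbln1 above Fbn2. Fbln2 and Efemp2 changed places in replicate 1, where Efemp2 had 4541 and Fbln2 had 3523 normalized counts per kb. Against the 11620 detected genes with a length, Fbln2 and Efemp2 exceeded 98.6% and 98.4%, Fbn1 94.7%, Mfap5 92.3% and Fbln5 90.5%, while Fbn2 exceeded 13.2%. Fbln2, Efemp2 and Fbn1 together held between 84.2% and 86.3% of the reads on the 10 genes. As a share of all reads on genes, the 10 genes took 0.297%, 0.584% and 0.370% in replicates 1, 2 and 3.

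Replicates differed more in these genes than in most of the transcriptome, apart from Efemp2. The median SD of log2(normalized count + 1) over the 10 genes was 0.79, beside 0.30 over all detected genes. A range of more than 2-fold between libraries was found in 6 of the 9 that were detected, a range that 22% of all detected genes had. With replicate 2 left out, the medians were 0.49 for the 10 genes and 0.20 for all detected genes. Fbn1 and Efemp1 stood more than 2-fold above both other libraries in replicate 2, where 10.1% of genes were apart in either direction and 5.2% were above. Replicate 3 was apart in 3 genes (background 3.58%), above in Eln (1.28% of all genes) and below in Fbn2 and Mfap2 (2.3%). Replicate 1 was apart in Eln alone, where it was below (4.26% in either direction and 1.97% below). Mfap5, Fbln1, Fbln2, Efemp2 and Fbln5 had no library apart.

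**Figure D2:**
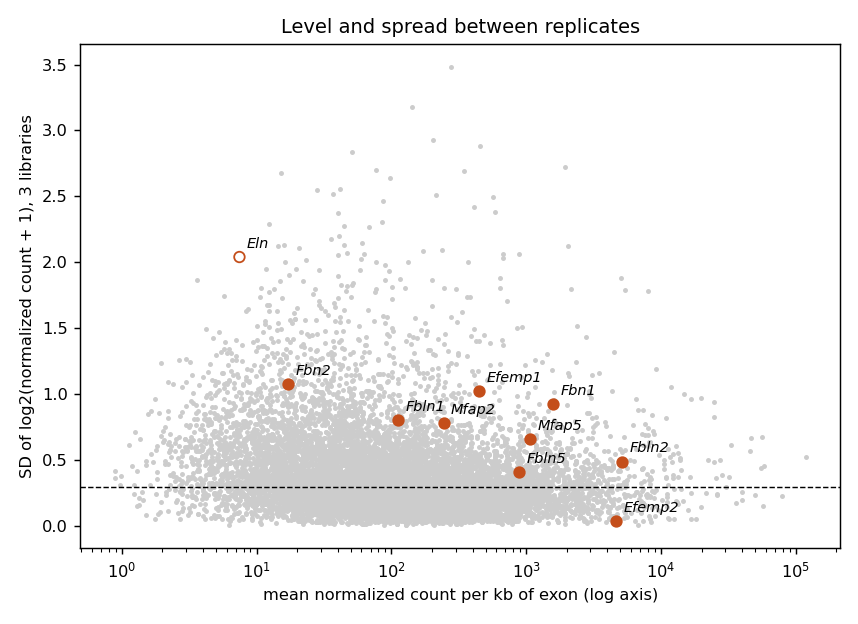
Mean normalized count per kb of exon (log axis) against the SD of log2(normalized count + 1) over the 3 libraries, for all detected genes with a length (grey) and the elastic fibre genes (orange, with Eln open because it was not detected); the dashed line is the median SD of the grey genes. Efemp2 sits at 0.03 near the floor, while the other 9 genes lie above the dashed line.

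Replicate 2 was the highest library for 8 of the 9 detected genes, against 40.6% of all detected genes, and for 9 or 7 of them when the libraries were scaled to equal totals or by TMM. In 6 genes, Fbn1 and the 5 fibulins among the 10, the libraries stood in the order replicate 1 below replicate 3 below replicate 2. This order was chosen after the values were seen and was held by 22.5% of all detected genes. For Efemp2 this order lies within 1.04-fold and did not hold with either of those scalings, while the other 5 genes kept it under both. In Efemp1, however, replicate 3 was only 1.07-fold above replicate 1 (counting interval 0.941 to 1.21), so these 2 libraries were not separated. Fbln7, a fibulin gene outside the 10, stood in the reverse order, with 600, 176 and 319 normalized counts in replicates 1, 2 and 3. Replicate 3 was the lowest library for 3 genes, Fbn2, Mfap2 and Mfap5 (28.3% of all detected genes). The 1 detected gene not highest in replicate 2 was Mfap2, whose replicates 1 and 2 were not separated (373 and 369 normalized counts) and stood in the other order with equal totals (375 and 381).

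**Figure D3:**
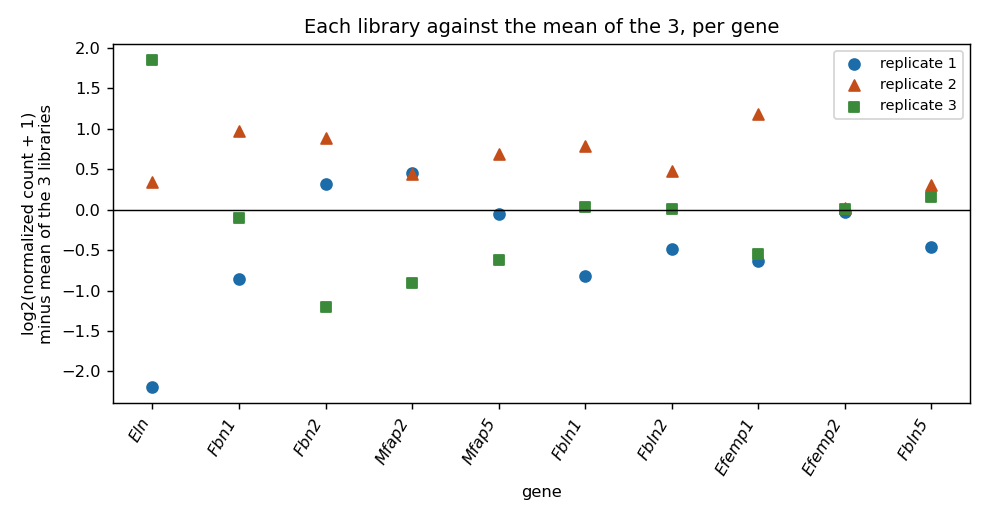
For each elastic fibre gene, log2(normalized count + 1) in each library minus the mean of the 3 libraries, so that 0 is the gene's own mean. The triangles of replicate 2 lie highest in 8 genes, the squares of replicate 3 lie lowest in Fbn2, Mfap2 and Mfap5, and the symbols of Efemp2 meet at 0.

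Exact binomial tests on recovered reads, adjusted over all genes with at least 10 reads in a pair of libraries, compared the libraries with each other and say nothing about a treatment. Between replicates 1 and 2, 9 of the 10 genes differed at an adjusted p of 0.05, with 69.1% of all tested genes called. Replicates 1 and 3 also differed in 9 of 10, with a background of 52%. For replicates 2 and 3 the count was again 9 of 10, with a background of 62.6%. The genes called with a difference over 2-fold as well were 4 between replicates 1 and 2, Eln, Fbn1, Fbln1 and Efemp1, all higher in replicate 2 (background 20.3% in either direction, 9.51% in this one). Between replicates 1 and 3 they were 3 (background 9.27%), Eln, higher in replicate 3 (3.63% of tested genes), and Fbn2 and Mfap2, higher in replicate 1 (5.64%). Between replicates 2 and 3 they were 6 genes (background 16.4%), of which Fbn1, Fbn2, Mfap2, Mfap5 and Efemp1 were higher in replicate 2 (9.22%) and Eln in replicate 3 (7.22%). For Eln, adjusted p was 3.56e-09 in the first pair and 2.76e-30 in the second by the exact binomial test.

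RefSeq promoter windows (GRCm38.p6) were found for 7 of the 10 genes, not for Eln, Fbn2 and Mfap5, in 12 windows with some overlap between windows of 1 gene. The 250 bases before the start were searched on both strands for TGANTCA and for GGGCGG, the GC box. TGANTCA includes the site usually given for AP-1, TGACTCA or TGAGTCA, but also allows A or T in the middle. It was searched because AP-1 is the factor the study follows downstream of ERK. TGANTCA reads the same on both strands and, by its letters, cannot overlap the GC box. It was present in 1 of the 12 windows, that of Efemp1, as TGAATCA with its first base 154 bases before the start, against 6.75% of 32851 windows of this length in the table. This match has A in the middle, so none of the 12 windows held TGACTCA or TGAGTCA. The 6.75% covers the wider pattern. GGGCGG was present in 9 of the 12, against 32.7% of all windows. Efemp2 alone gave 3 of these 9, 2 of them overlapping, and the 32.7% covers windows of genes whether detected or not. The sequences shown are those of Fbn1 and Efemp1, the genes with replicate 2 apart, and of Efemp2, the steadiest gene, with the matches in capitals. Of the 3 windows of Efemp2 the most upstream is shown, which holds 2 GC boxes, while the others hold 5 each. They run 5′ to 3′ on the strand of the gene, at chr2:125506439-125506688 (minus) for Fbn1, chr11:28852955-28853204 (plus) for Efemp1 and chr19:5473696-5473945 (plus) for Efemp2.
Fbn1: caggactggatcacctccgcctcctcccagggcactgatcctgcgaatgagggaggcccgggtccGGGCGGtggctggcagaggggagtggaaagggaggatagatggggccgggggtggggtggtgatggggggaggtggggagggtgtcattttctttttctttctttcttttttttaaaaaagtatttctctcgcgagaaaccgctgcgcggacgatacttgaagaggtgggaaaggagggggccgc
Efemp1: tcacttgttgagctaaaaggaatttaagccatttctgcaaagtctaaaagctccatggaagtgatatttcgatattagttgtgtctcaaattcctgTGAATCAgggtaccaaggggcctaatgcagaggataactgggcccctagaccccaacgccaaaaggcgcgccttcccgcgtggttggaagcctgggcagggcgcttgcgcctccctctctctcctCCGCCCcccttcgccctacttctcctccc
Efemp2: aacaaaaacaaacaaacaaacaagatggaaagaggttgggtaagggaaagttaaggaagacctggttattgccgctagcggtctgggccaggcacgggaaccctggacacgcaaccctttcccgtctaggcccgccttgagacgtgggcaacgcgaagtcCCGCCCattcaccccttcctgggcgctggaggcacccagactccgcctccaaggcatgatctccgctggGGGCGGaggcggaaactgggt
A match is a description of the letters in the window, and binding was not measured in these libraries.

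The enzymes that cross-link elastin and collagen, the lysyl oxidases, were all detected (5 of 5). Lox had 123161, 87374 and 99744 normalized counts in the same order of replicates, and per kb of exon its mean of 21646 ± 3804 (SD, n = 3) was the highest of the group and above every elastic fibre gene. Loxl4 was the lowest, with 260 ± 76.3 per kb. Loxl1, which is known to act on elastin through fibulin-5, had 3030, 8468 and 2921 normalized counts and was the 1 lysyl oxidase with a library apart. As for Fbn1 and Efemp1, that library was replicate 2. Loxl2 and Loxl3, the remaining lysyl oxidases, had no library apart.

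The latent TGF-beta binding proteins, relatives of fibrillin of which most, though not Ltbp2, hold latent TGF-beta in the matrix, were also all detected (4 of 4), and none had a library apart. Ltbp2 had 46123, 32723 and 64943 normalized counts in replicates 1, 2 and 3, with the highest mean per kb of the group, 5856 ± 1978 (SD, n = 3). Ltbp4, which binds fibulin-5, was the lowest with 267, 372 and 333 normalized counts. For Ltbp1 and Ltbp2, replicate 2 was the lowest library, the opposite of Fbn1. Ltbp3, with 3163, 3651 and 3692 normalized counts, and Ltbp4 were lowest in replicate 1, as was Fbn1. Ltbp4 was also highest in replicate 2, as was Fbn1.

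Among 10 other proteins known at elastic fibres or microfibrils, 7 were detected, Emilin3 and Mmrn2 were at 0 in every library and Mfap4 had at most 2.82 normalized counts. Bgn, a small proteoglycan, had the highest mean per kb, 12193 ± 3058 (SD, n = 3), and Hmcn1, of the fibulin family, the lowest of those detected, 4.52 ± 2.63. Emilin2, a glycoprotein at the elastin surface, had 493, 5161 and 441 normalized counts, so that replicate 2 was more than 10-fold above both others. Emilin1 had 5871, 3290 and 7828 normalized counts and was lowest in replicate 2. Dcn was apart below in replicate 2 (background 4.87%) with 3661, 1723 and 3659 normalized counts, and Hmcn1 apart above in replicate 1 (background 2.29%) with 160, 69.8 and 58.1.

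Of the 8 ADAMTS and ADAMTS-like genes whose proteins bind fibrillin, 6 were detected, and Adamts17 and Adamtsl2 were not. Adamtsl4 had the highest mean per kb, 324 ± 121 (SD, n = 3), and Thsd4 the lowest, 15.0 ± 1.90. Adamts6, with 124, 383 and 271 normalized counts, was apart below in replicate 1. The chaperone genes Fkbp10 and Ppib and the genes Glb1, Neu1 and Ctsa, whose products are lysosomal enzymes and belong to the elastin receptor complex, were all detected (5 of 5) with no library apart. Fkbp10, a chaperone of tropoelastin and collagen, had the highest mean per kb, 5286 ± 1160, and Neu1 the lowest, 146 ± 15.5.

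Enzymes that cut elastin were detected for 6 of 9 genes. Mmp14 had the highest mean per kb, 2819 ± 610 (SD, n = 3), and Mmp12, the macrophage elastase, the lowest of those detected, 5.92 ± 3.93. Mmp9 had 157, 23.3 and 550 normalized counts, apart below in replicate 2 and above in replicate 3, and Mmp12 had 40.8, 15.5 and 72.3, apart below in replicate 2. Ctss was not detected in every library, with 0, 9.86 and 55.7 normalized counts, apart below in replicate 1 and above in replicate 3. The summed leukocyte markers were also highest in replicate 3, with 153, 78.9 and 690 normalized counts, most of it from Lyz2 with 123, 62.7 and 601. Of the 7 leukocyte markers, only Lyz2 was detected in every library, and Cd74 and Ptprc were highest in replicate 1. Replicate 3 is the library with the highest Eln, and the part of these markers in that value was not tested.

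**Figure D4:**
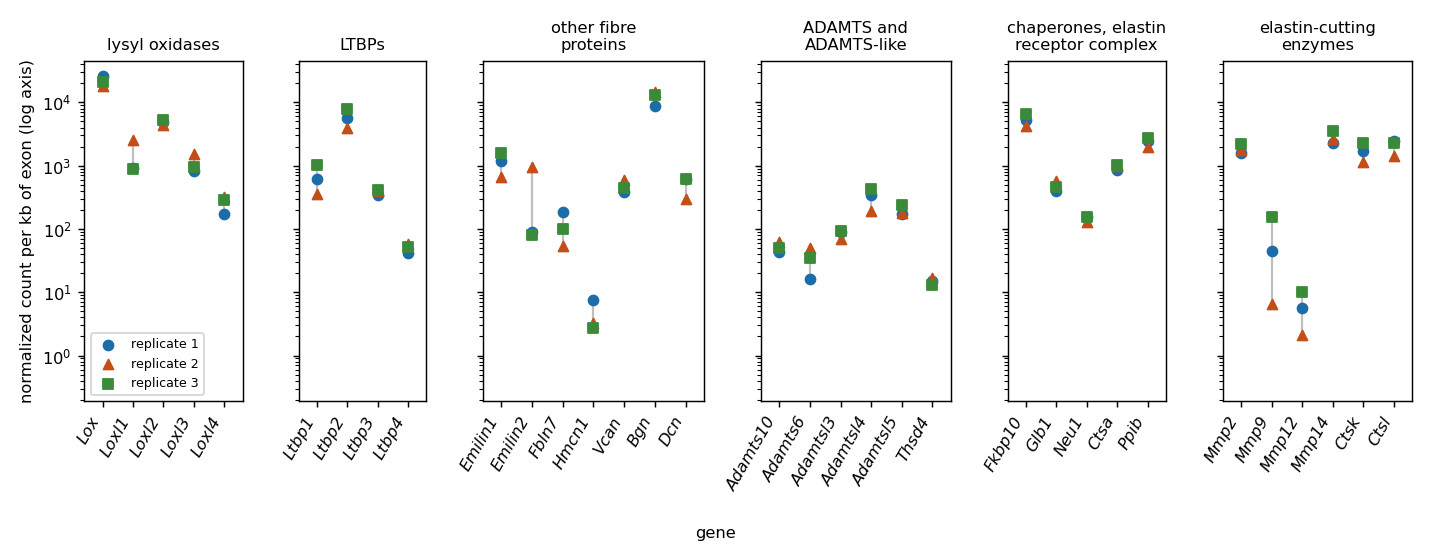
Normalized counts per kb of exon (log axis) of the detected genes in 6 lists around the elastic fibre, in the 3 libraries; each symbol is 1 library and the grey line spans the 3. Lox, with a mean of 21646, is the highest gene shown, and Loxl1 and Emilin2 show the triangle of replicate 2 above the other symbols.

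Of the marker genes, Thy1 had 2031, 15760 and 1652 normalized counts and Lum had 5073, 289 and 1164, so that replicate 2 was apart above in the first and below in the second, in which replicate 1 was also apart above. Des, an intermediate filament of muscle, had 212, 1208 and 77.0, with replicate 2 apart above and replicate 3 apart below, while Smtn (4008, 4892 and 4881) and Lmod1 (3817, 4410 and 3811) varied little. Myh11, the myosin of smooth muscle, had 1383, 1587 and 584 and was apart below in replicate 3. Of the 8 smooth muscle markers, 4 were lowest in replicate 3 and 2, Acta2 and Tagln, were highest there. The summed level of all 8 was also highest in replicate 3, with 298447, 301569 and 356387 in replicates 1, 2 and 3. The endothelial marker Tek had 6.95, 185 and 2.37, with replicate 2 apart above and replicate 3 below, whereas Pecam1 had at most 9.55 and Cdh5 at most 1.19. Keratinocyte markers summed to between 43.0 and 87.7 normalized counts, most of it from Krt10 (80.8, 39.5 and 32.0, apart above in replicate 1). Among the leukocyte markers, Laptm5 and Lyz2 were apart above in replicate 3, Laptm5 also below in replicate 1, and Fcer1g was apart below in replicate 2. Of the 7 tendon and cartilage markers averaging 10 or more, 5 were apart below in replicate 2 (background 4.87%), Scx, Mkx, Comp, Col2a1 and Acan. Col2a1 was also apart above in replicate 1, and Acan, with 5, 0 and 31 reads, above in replicate 3. Tnmd (124, 127 and 107 normalized counts) and Sox9 (171, 149 and 117) had no library apart, and Matn1 and Chad were at 0 in every library. Skeletal muscle markers summed to 2450, 7298 and 5602, nearly all of it Acta1, which was apart below in replicate 1, with Myod1 and Pax7 at 0 in every library. Whether any of these differences bears on the elastic fibre genes was not tested.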

How the data were processed

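RNA-seq of 3 libraries of 1 condition was analysed. The study's methods describe a stranded library kit, adapter filtering with ea-utils, alignment of single-end reads to mm10 and counting of unique alignments per gene. The submitters' processing notes name FastQC 0.11.5, TopHat2 2.0.13, SAMtools 0.1.19.24, HTSeq 0.5.3p3 and DESeq. The authors deposited a signal, normalized counts per gene, in which the values of a library are whole reads divided by 1 factor. Another 3 per-sample columns match no label and were left unused. Neither the annotation nor the strand setting of the counting is given in the sources used here.

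Reads were recovered by dividing by the smallest value above 0, and 100% of values were whole within 0.01, with size factors of 1.15, 1.42 and 0.844 in replicates 1, 2 and 3. Spread is the SD of log2(normalized count + 1). Apart means that 1 library differed by more than 2-fold, in 1 direction, from each of the other two on log2(normalized count + 1), in genes averaging 10 or more. Two-sided exact binomial tests with Benjamini-Hochberg adjustment (threshold 0.05) were run for each pair on genes holding 10 reads or more. Fold intervals are exact Clopper-Pearson intervals (95%). Exonic length is the union of exons in GENCODE M21 (GRCm38, the build of the authors), matched by gene name for 10 of the 10 genes. Alternatives were equal totals, TMM of edgeR 4.0.16 (R 4.3.3), other pseudocounts, minimums, fold limits and lengths, and each replicate left out. Python 3.11.15, scipy 1.17.1 and pandas 2.3.3 were used. The binomial test and the call of a library apart, but no other step, were tried on simulated Poisson counts. Those counts held no spread between libraries beyond counting error, except in genes changed on purpose. The genes, lists and naming rule were chosen with earlier results of these data known. The rule named all elastic fibre genes and, in each list, the highest and lowest detected gene per kb and every gene with a library apart. Loxl2, Loxl3, Ltbp1, Ltbp3, Emilin1, Mfap4, Fbln7, Smtn, Lmod1 and Pecam1 were added after their values were seen. So were Acta2, Tagln, Cdh5, Cd74, Ptprc, Tnmd, Sox9, Matn1 and Chad.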

Additional observations from a re-analysis of the deposited data

How the results depend on the processing

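No paired analysis was possible because all libraries belong to the same group. Scaling to equal totals or by TMM moved no mean of the 10 genes by more than 1 SD, and shifted the median of all genes in a library by between -0.05 and 0.05 (log2). With equal totals Efemp2 had 17295, 18509 and 17133 normalized counts and with TMM scaling 17203, 17850.1 and 17860, so its order of libraries did not hold. Leaving out a replicate cannot move a mean of 3 values by more than 1 SD and says nothing about the stability of the levels. The median SD was between 0.49, without replicate 2, and 0.84, without replicate 1. Fbln2 and Efemp2 exchanged ranks without replicate 2.

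A fold limit of 1.5 gave 4 genes apart in replicate 1, 4 in replicate 2 and 8 in any library, against 1, 2 and 5 at 2-fold. With a mean of at least 100 required, 0 genes were apart in replicate 1, since Eln is below that mean. Requiring a difference over 2-fold lowered the calls from 9 to 4 between replicates 1 and 2 and to 3 between replicates 1 and 3, by construction. Without division by length, 4 of the 10 genes kept their rank, and the mean ratios were 13.7 for Mfap5 to Mfap2, 72.6 for Fbln2 to Fbln1, 3.01 for Efemp2 to Fbln5 and 26.5 for Efemp2 to Efemp1, against 4.61, 49.8, 5.50 and 14.2 per kb, which follows from the lengths. With the longest coding transcript as length, chosen after seeing the data, Mfap5 to Mfap2 was 9.73 and Mfap5 ranked above Fbn1. Depth limited Eln most, with 8 reads in replicate 1.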
